A study of Mus musculus with 2 samples.

Results

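The genes described here encode the Myt family of transcription factors and the corepressor proteins they are known to work with. They are the 3 family genes Myt1, Myt1l and St18, and the corepressor genes Sin3a, Sin3b, Hdac1, Hdac2, Kdm1a and Rcor1. The 9 genes were chosen by name and known function, by a rule that uses no measured value but was written with earlier results of these data known, from the 55487 genes of the deposited tables, and each had 1 row in both tables. RNA was sequenced from sorted islet beta cells of mice 2 months of age with MytF/F, Myt2F/F and Myt3F/F alleles together with RipCre, in 2 libraries from pooled males and females. F/F denotes a floxed gene, Myt2 and Myt3 are other names of Myt1l and St18, and RipCre is Cre recombinase under the rat insulin promoter. Cre is therefore expected in insulin-expressing cells, and other islet cells would keep intact alleles. One library carries the word duplicate in its label, which does not say whether other mice were used, so a p-value below measures only these reads. Both libraries hold mutant cells, control cells were not analysed here, and no value below compares mutant with control cells.

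Myt factors are zinc-finger proteins of neurons and endocrine cells that bind DNA at a short core with the letters AAGTT. They act largely as repressors, through the scaffold protein SIN3, which carries the histone deacetylases HDAC1 and HDAC2, and through LSD1, which removes methyl groups from histone H3. LSD1, the product of Kdm1a, is held on chromatin by CoREST, the product of Rcor1, which also binds HDAC1 and HDAC2. In beta cells the Myt genes are known for keeping mature cells functional and for acting redundantly.

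The sequences in front of the genes' starts are shown because AAGTT is the known core site of the family. RefSeq's promoter table on GRCm38.p6 held 14 starts for 7 of the 9 genes, and the 250 bases upstream of each were searched for AAGTT on both strands, so that AACTT on the printed strand also counted. A match was found in 6 of 14 windows, against 35.3% of all 32851 windows, so the share lies near that of promoters in general. Each of the 3 windows of Myt1 held 1 match. Of the 5 windows of Myt1l, 1 held 1 match and the most downstream held 2, while Sin3b held 3. No match was found in the windows of Sin3a, Hdac2, Kdm1a and Rcor1. St18 and Hdac1 were not matched. In the runs below, given 5′ to 3′ on the gene's strand, capitals mark AAGTT or AACTT, and Rcor1 is shown as a window without a match.
Myt1, most upstream start (chr2:181763082-181763331, plus strand): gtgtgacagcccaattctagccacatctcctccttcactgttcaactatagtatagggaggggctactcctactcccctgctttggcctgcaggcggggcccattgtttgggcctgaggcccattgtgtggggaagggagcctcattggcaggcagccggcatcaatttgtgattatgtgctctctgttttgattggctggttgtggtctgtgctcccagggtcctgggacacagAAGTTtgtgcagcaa
Myt1, most downstream start (chr2:181796057-181796306, plus strand): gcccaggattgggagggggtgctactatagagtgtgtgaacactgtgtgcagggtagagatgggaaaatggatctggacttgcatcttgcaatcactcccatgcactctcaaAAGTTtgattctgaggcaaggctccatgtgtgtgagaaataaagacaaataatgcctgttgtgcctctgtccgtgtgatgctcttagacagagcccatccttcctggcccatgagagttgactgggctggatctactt
Myt1l, most downstream start (chr12:29534972-29535221, plus strand): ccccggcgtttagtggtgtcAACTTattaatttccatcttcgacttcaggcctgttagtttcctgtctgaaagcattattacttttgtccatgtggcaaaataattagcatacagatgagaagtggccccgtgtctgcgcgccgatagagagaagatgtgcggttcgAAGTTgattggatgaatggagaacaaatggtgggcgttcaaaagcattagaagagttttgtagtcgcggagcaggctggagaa
Sin3b (chr8:72723020-72723269, plus strand): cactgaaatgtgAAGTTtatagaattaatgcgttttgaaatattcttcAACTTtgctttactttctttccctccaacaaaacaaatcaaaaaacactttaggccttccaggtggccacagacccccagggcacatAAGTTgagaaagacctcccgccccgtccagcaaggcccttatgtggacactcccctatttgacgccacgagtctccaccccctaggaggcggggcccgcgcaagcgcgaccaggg
Rcor1 (chr12:111039117-111039366, plus strand): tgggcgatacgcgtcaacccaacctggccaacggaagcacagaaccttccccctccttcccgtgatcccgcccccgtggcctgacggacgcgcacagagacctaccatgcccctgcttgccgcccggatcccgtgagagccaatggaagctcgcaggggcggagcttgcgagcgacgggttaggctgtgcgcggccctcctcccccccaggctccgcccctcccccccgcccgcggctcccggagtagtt
The match nearest to a start was that of Myt1's most upstream window, whose first base lies 15 bases before the start. The match in Myt1's most downstream window lies within the longer letters AAAGTTT. The windows also differed in CG dinucleotides. Myt1 held 2, 0 and 1 in its 3 windows and Myt1l held 3, 5, 6, 9 and 12, whereas the corepressor genes held 10 (Sin3b) to 27 (Hdac2), with a median of 6 over all windows. The upstream 250 bases were 70.4% G or C in Rcor1 and 68.8% in Hdac2, against 54.8% in the most upstream window of Myt1 and 36.8% in that of Myt1l. These matches describe letters and do not show binding.

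On GRCm38 (GENCODE M21), Myt1 lies on chromosome 2 from 181763332 to 181827797, Myt1l on chromosome 12 from 29528384 to 29923213 and St18 on chromosome 1 from 6487231 to 6860940. Sin3a, with 24 exons after merging, spans 57072040 to 57128366 on chromosome 9, and Sin3b, with 20, spans 72723285 to 72758201 on chromosome 8. Hdac1 (12 exons) spans 129516104 to 129542713 on chromosome 4, and Hdac2 (14 exons) 36974544 to 37001889 on chromosome 10. Kdm1a (20 exons) spans 136550540 to 136602723 on chromosome 4, and Rcor1 (12 exons) 111039351 to 111115901 on chromosome 12. Hdac1 and Kdm1a are on the minus strand and the others on the plus strand. The exons sum to between 3.445 kb in Hdac1 and 14.018 kb in Myt1l. Levels of different genes are therefore compared below only in TPM, the authors' values scaled by gene length. That length counts all annotated exons, whether or not these cells use them. Counts were summed over all exons, so they do not show whether floxed exons were removed.

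The libraries held 50121771 and 39003197 counted reads. Beta-cell markers were high, with Ins1, Ins2, Iapp, Mafa, Slc2a2, G6pc2, Ucn3 and Glp1r summing to 180700.8 CPM (reads scaled to a common library total) in library 1 and 185107 CPM in library 2. Markers of other cells were also counted. Alpha-cell markers summed to 513 and 371 CPM with 4 of 5 detected at 1 CPM in both libraries. Delta-cell markers summed to 1653 and 1224 CPM with 4 of 4 detected, and PP-cell markers to 979 and 1215 CPM with 3 of 3. Acinar markers summed to 119 and 537 CPM with 10 of 11 detected, and ductal markers to 221 and 257 CPM with 4 of 5. Endothelial markers (5 of 6 detected), mesenchymal (4 of 5) and immune markers (2 of 6) summed to between 8.64 and 52.6 CPM. Neuron and glia markers (3 of 8) summed to 316 and 300.3 CPM, mostly Snap25 and Mbp, while Rbfox3, Nefl, Stmn2, Sox10 and Gfap did not reach 1 CPM in both libraries. No marker was at 0 in either library. In such bulk samples fewer cells of a type and less RNA per cell cannot be told apart.

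Transcripts of all 9 genes were detected, that is, at 1 CPM or more in both libraries, where 24.4% of all listed genes were. Their median was 27.4 TPM, against 14.1 TPM over the 13955 genes whose mean reached 1 CPM. Kdm1a was the highest, above 89.8% of those genes by mean TPM, and Myt1l the lowest, above 35.3% of them.

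Floxed alleles target the 3 Myt genes in these mice. Myt1 stood at 29.7 TPM in library 1 and 24.8 TPM in library 2 (mean 27.3 ± 3.51, SD, n = 2), from 3891 and 2552 reads. St18 stood at 31.0 and 23.8 TPM (27.4 ± 5.09), from 3644 and 2203 reads. Myt1l stood at 8.74 and 7.58 TPM (8.16 ± 0.820), from 2230 and 1523 reads. All 3 were higher in library 1, and the ranges of Myt1 and St18 overlapped while Myt1l lay below both. Of the summed TPM of the family, Myt1 made up 43.5 ± 0.927%, St18 43.5 ± 1.58% and Myt1l 13.05 ± 0.651% (SD, n = 2). The exons of Myt1l overlap those of Gm20208, a noncoding gene on the other strand, over 4.52% of their bases. The kit does not mark strand, so reads there cannot be assigned to either, and Gm20208 itself was listed with 228 and 157 reads.

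The SIN3 scaffolds were both expressed. Sin3a stood at 40.2 and 39.6 TPM (39.9 ± 0.459, SD, n = 2) and Sin3b at 26.8 and 24.6 TPM (25.7 ± 1.503). Sin3a was the higher of the pair in each library, by 1.503-fold (exact 95% interval 1.44 to 1.57) in library 1 and 1.61-fold (1.52 to 1.69) in library 2, and their ranges did not overlap. The exons of Sin3a overlap genes on the other strand over 3.96% of their bases, among them Man2c1os, listed with 72 and 37 reads. All intervals given cover counting error only, since several reads can stem from 1 molecule and no molecular identifiers were used.

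Hdac2 stood at 42.9 and 43.8 TPM (43.4 ± 0.652, SD, n = 2), and Hdac1 at 27.95 and 26.04 TPM (27.0 ± 1.35). These encode the paired deacetylases of both corepressors. Hdac1 was 0.651-fold of Hdac2 (exact 95% interval 0.615 to 0.690) in library 1 and 0.594-fold (0.556 to 0.635) in library 2. The count of Hdac1 is uncertain, because 35.5% of the 50-base words of its transcripts also occur in other genes, chiefly its processed pseudogenes. The 2 pseudogenes in the tables, Hdac1-ps and Gm4864, held 156 reads in library 1 and 104 in library 2, or 8.90% and 8.09% of the Hdac1 reads. With those reads added, a step chosen after seeing the data, Hdac1 reached a mean of 29.3 TPM. That step cannot restore reads left out for matching several places, and the rule for such reads is not given. The order of Hdac1 and Hdac2 is therefore uncertain. Hdac2 shared no such words. Hdac3, the deacetylase of the NCoR complex, lay close to Hdac1 at 31.1 and 26.4 TPM, and the intervals of their ratio excluded 1 only in library 1.

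Kdm1a, which encodes the demethylase LSD1, stood at 76.3 and 65.1 TPM (70.7 ± 7.92, SD, n = 2). Rcor1, which encodes its CoREST partner, stood at 41.0 and 44.1 TPM (42.5 ± 2.21). Kdm1a was high in library 1 and Rcor1 in library 2, and Kdm1a exceeded Rcor1 in both. The ratio was 1.86-fold (exact 95% interval 1.79 to 1.93) in library 1 and 1.48-fold (1.41 to 1.54) in library 2, a gap between libraries wider than either interval.

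Both genes led their own families. Kdm1a exceeded its relative Kdm1b 5.50-fold and 5.61-fold and made up 84.8 ± 0.181% of the summed TPM of the pair (SD, n = 2). Kdm1b stood at 13.9 and 11.6 TPM. Rcor1 made up 69.1% of the CoREST family in library 1 and 74.7% in library 2. Rcor2 stood at 10.1 and 8.005 TPM and Rcor3 at 8.21 and 6.91 TPM. Rcor1 exceeded Rcor2 4.04-fold and 5.51-fold, and Rcor3 4.99-fold and 6.38-fold. Exons of Rcor3 overlap other genes over 8.34% of their bases and those of Kdm1b over 9.19%, both on the other strand, so these counts are less certain. Those of Rcor1 overlap Gm48632, on the same strand, over 0.932%.

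**Figure D1:**
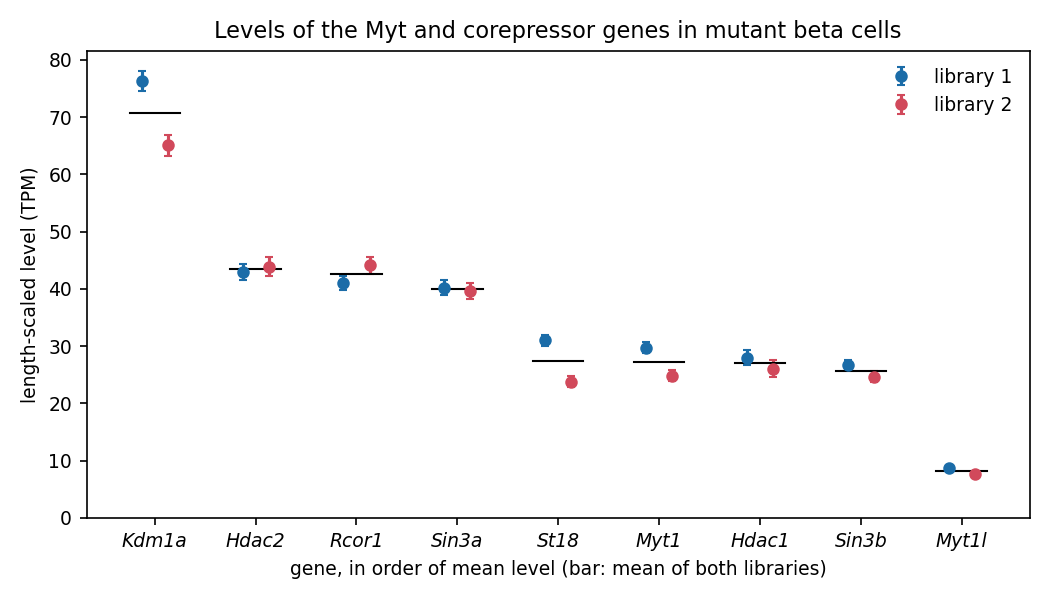
Length-scaled level (TPM) of each of the 9 genes in library 1 and library 2, with exact 95% intervals of the counts and a bar at the mean of both. Kdm1a lies highest at 76.3 and 65.1 TPM, Myt1l lowest at 8.74 and 7.58 TPM, and St18, Myt1, Hdac1 and Sin3b lie together between 23.8 and 31.0 TPM.

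In the order of mean TPM, Kdm1a was followed by Hdac2, Rcor1, Sin3a, St18, Myt1, Hdac1, Sin3b and Myt1l. Of the 8 pairs of neighbours in this order, 4 had overlapping ranges, which were Hdac2 and Rcor1, St18 and Myt1, Myt1 and Hdac1, and Hdac1 and Sin3b. Rcor1 and Sin3a did not overlap, but the interval of their ratio included 1 in library 1 (0.975 to 1.06). The order of library 1 was that of the means, while in library 2 only 4 genes kept their place and St18 stood in place 8 instead of 5. The order by CPM differed more, with 1 gene, Kdm1a, in the same place. By TPM Kdm1a and Myt1l thus stood apart at the ends, while by CPM Hdac1 was the lowest. As counted, Hdac2, Rcor1 and Sin3a lay above St18, Myt1, Hdac1 and Sin3b in both libraries, though the place of Hdac1 is uncertain. Within those groups most neighbours did not differ beyond the spread of the libraries.

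**Figure D2:**
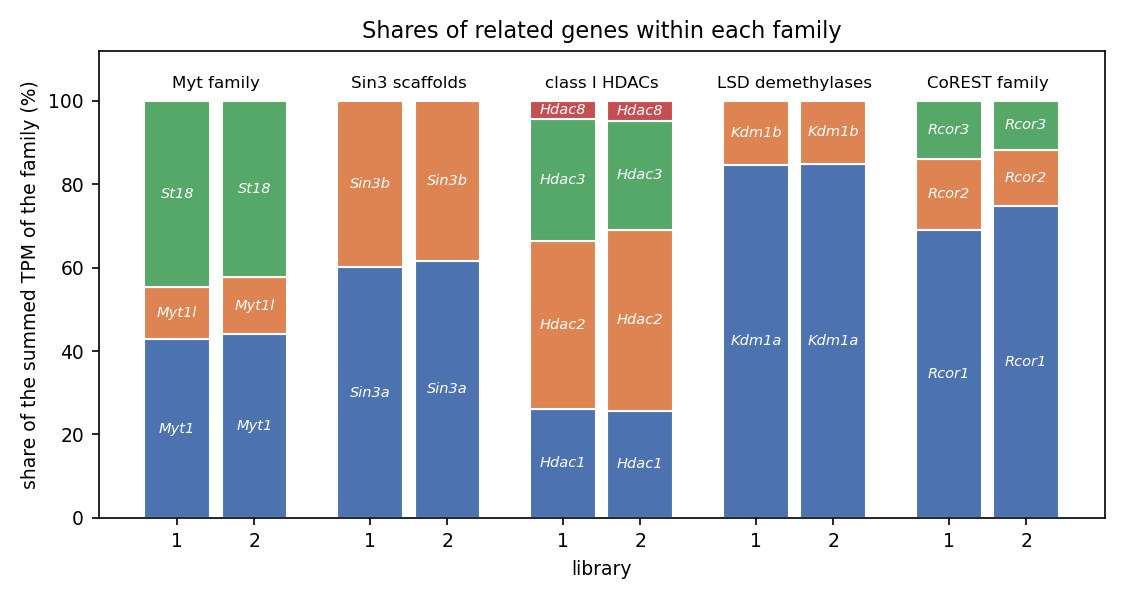
Share of the summed TPM that each gene takes within its family, in library 1 and library 2. Kdm1a takes 84.6% and 84.9% of the LSD pair, Rcor1 69.1% and 74.7% of the CoREST family, and Myt1l 12.6% and 13.5% of the Myt family.

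Between the libraries the 9 genes each differed by less than 2-fold, at ratios of library 2 over library 1 between 0.777 and 1.09. None of the 9 was called at an adjusted p under 0.05 with a 2-fold ratio, by the exact binomial test of each gene against the library totals with Benjamini-Hochberg adjustment, where 4.31% of the 20681 tested genes were called. With a 1.5-fold ratio in its place, 0 of 9 and 8.05% of tested genes were called. Of the 9286 genes whose mean reached 10 CPM, 96.7% had a smaller absolute log2 ratio than Bach2. Bach2, named only as a mark near 1.5-fold, had a ratio of 0.666. Few genes with such counts thus reached either threshold, and 0 of 9 lies near their share. By adjusted p alone 6 of 9 passed, against 32.4% of all tested genes and 50.7% of the 9286 genes whose mean reached 10 CPM, as those of all 9 did. Of the 6, 5 were lower in library 2 (28.8% of those 9286 genes) and 1 was higher (21.9%). Over all 9 genes, the log2 ratio of library 2 over library 1 had a median of −0.10, against −0.02 over the 9286 genes. The test compares the reads of 2 libraries of 1 group and no conditions.

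All 3 Myt genes were among those lower in library 2. St18 had the largest difference, at 0.777 of its library 1 CPM (exact 95% interval 0.737 to 0.819, adjusted p = 9.2e-20 by the exact binomial test). Of the 9286 genes, 90.6% had a smaller absolute log2 ratio. Myt1 stood at 0.843 of its library 1 CPM (0.801 to 0.886, adjusted p = 2.2e-10, exact) and Myt1l at 0.878 (0.822 to 0.937, adjusted p = 0.00048, exact). These differences were each under 2-fold. In the same library the sums of alpha- and delta-cell markers were lower, and those of PP-cell, acinar and ductal markers higher, as given above. The alpha- and delta-cell sums were mostly Gcg and Sst, while Irx1, Irx2 and Ghsr did not pass by adjusted p. The PP-cell sum was mostly Ppy. The part of these other cells in the differences was not tested.

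Among the corepressor genes, Kdm1a was lower in library 2, at 0.863 of its library 1 CPM (exact 95% interval 0.832 to 0.895, adjusted p = 3.6e-14, exact binomial test), and Rcor1 was higher, at 1.09 (1.04 to 1.14, adjusted p = 0.00094). Sin3b was slightly lower, at 0.931 (0.885 to 0.980, adjusted p = 0.021, exact), but its adjusted p was 0.23 with TMM factors and 0.098 with DESeq2 size factors. Hdac2 (1.03, interval 0.983 to 1.09), Sin3a (0.995, 0.949 to 1.04) and Hdac1 (0.943, 0.876 to 1.01) did not pass. For Hdac2 the adjusted p became 0.045 with TMM factors, and the log2 ratio of Sin3a turned from −0.01 to 0.04 with them.

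**Figure D3:**
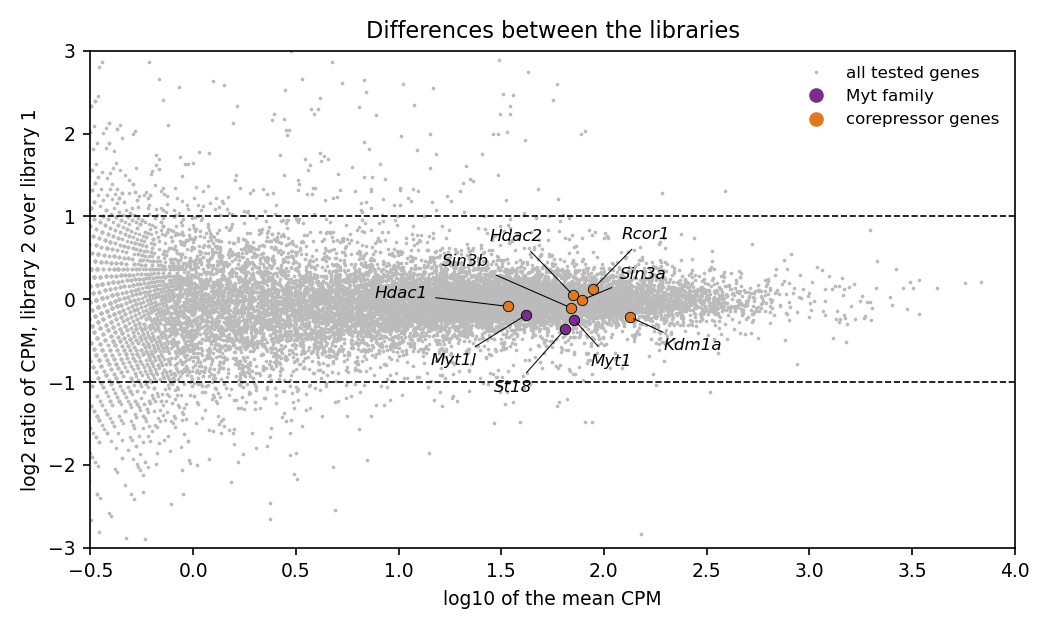
Log2 ratio of CPM of library 2 over library 1 against log10 of the mean CPM for the tested genes (grey), the Myt family (purple) and the corepressor genes (orange), with dashed lines at 2-fold. All 9 genes lie within the lines, between −0.36 (St18) and 0.12 (Rcor1), and 3809 tested genes fall outside the axes.

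The other subunits of the complexes were present almost without exception. Of the 46 subunits of the SIN3, LSD1-CoREST, NuRD and NCoR complexes beside the members, 45 reached detection. Their median was 29.4 TPM. None was called between the libraries at 2-fold, where 4.31% of all tested genes were, and few of those with a mean of 10 CPM or more. By adjusted p alone 4 of the 46 were higher and 21 lower in library 2, against 13.4% and 19% of all tested genes, or 21.9% and 28.8% of those whose mean reached 10 CPM. In the SIN3 complex 20 of 21 genes reached detection and the median was 20.5 TPM. It was led by Rbbp7, a histone chaperone shared with NuRD, at 161 and 153 TPM, by the sugar transferase gene Ogt at 107 and 84.3 TPM, and by Sap30l at 59.5 and 53.6 TPM. The lowest detected gene was the DNA dioxygenase Tet1 at 2.61 and 1.90 TPM, and Brms1 was under 1 CPM with 14 and 7 reads. Sin3a and Sin3b thus stood above the list's median in both means.

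In the LSD1-CoREST list all 15 genes reached detection and the median was 30.1 TPM. The highest was Ctbp1, a corepressor that binds many zinc-finger proteins, at 101 and 95.7 TPM, followed by Kdm1a and the HMG-box gene Hmg20b at 49.4 and 39.7 TPM. The lowest was Rcor3. NuRD, the chromatin remodelling complex that also holds HDAC1 and HDAC2, had 15 of 15 genes detected and a median of 43.4 TPM, led by Rbbp7, the remodeller Chd4 at 156 and 130 TPM and the methyl-CpG binder Mbd2 at 136 and 150 TPM, with Chd5 lowest at 7.29 and 7.21 TPM. The NCoR list had 7 of 7 detected and a median of 62.5 TPM, with Tbl1x at 93.2 and 85.9 TPM and Ncor1 at 88.9 and 82.0 TPM, and Tbl1xr1 lowest at 7.66 and 6.74 TPM. Hdac1, Hdac2 and their shared subunits belong to several of these lists, so the lists are not independent.

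All 11 HDAC genes reached detection and their median was 27.0 TPM. By mean TPM Hdac2 ranked behind Hdac6 (57.0 and 53.2 TPM) and Hdac5 (53.4 and 39.6 TPM). Hdac9 was the lowest at 1.57 and 1.02 TPM. None was called at 2-fold, where 4.31% of all tested genes were. By adjusted p alone 5 were lower in library 2 and 0 higher. Of all tested genes 19% and 13.4% were, and of those whose mean reached 10 CPM 28.8% and 21.9%. The class IIa gene Hdac7, which shuttles between nucleus and cytoplasm, came nearest to the threshold, at 17.9 and 9.74 TPM (ratio 0.549, exact 95% interval 0.508 to 0.593, adjusted p = 3.0e-55, exact binomial test); it was singled out after its values were seen. Hdac1 and Hdac2, the members in this family, were not among the 5.

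Genes listed as DNA-binding partners of the corepressors were unevenly expressed. Of 13 partners of LSD1-CoREST, 6 were detected and the list median was 0.477 TPM. Insm1, an endocrine factor that binds LSD1 through a short N-terminal motif, stood far above the rest at 340 and 295 TPM, above each Myt gene. Zfp516 followed at 121 and 121 TPM and Prdm1 at 7.48 and 5.93 TPM, and Bcl11a was the lowest detected at 0.542 and 0.276 TPM. Gfi1, Gfi1b, Snai1, Snai2, Snai3, Insm2 and Nr2e1 were under 1 CPM in at least 1 library. Snai2 was called lower in library 2 from 19 and 3 reads (adjusted p = 0.016, exact binomial test). A count so low carries a wide interval, with a ratio of 0.203 (0.0385 to 0.689), and 2.4% of tested genes were called lower.

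Of 16 partners of SIN3, 14 reached detection. The list median was 23.7 TPM and none was called, where 4.31% of all tested genes were. Klf10 led with 75.2 and 53.9 TPM, followed by the MAX-binding repressor Mxd4 with 63.1 and 54.1 TPM. Next was Pbrm1 with 52.4 and 47.1 TPM, which is in the list but does not encode a sequence-specific DNA-binding protein. Rest, the repressor of neuronal genes that recruits both SIN3 and CoREST, was the lowest detected, at 0.700 and 0.764 TPM from 92 and 79 reads. Mxd3 and Tgif2 were under 1 CPM. In these cells Myt1, Myt1l and St18 thus each stood above Rest in both libraries, per length.

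**Figure D4:**
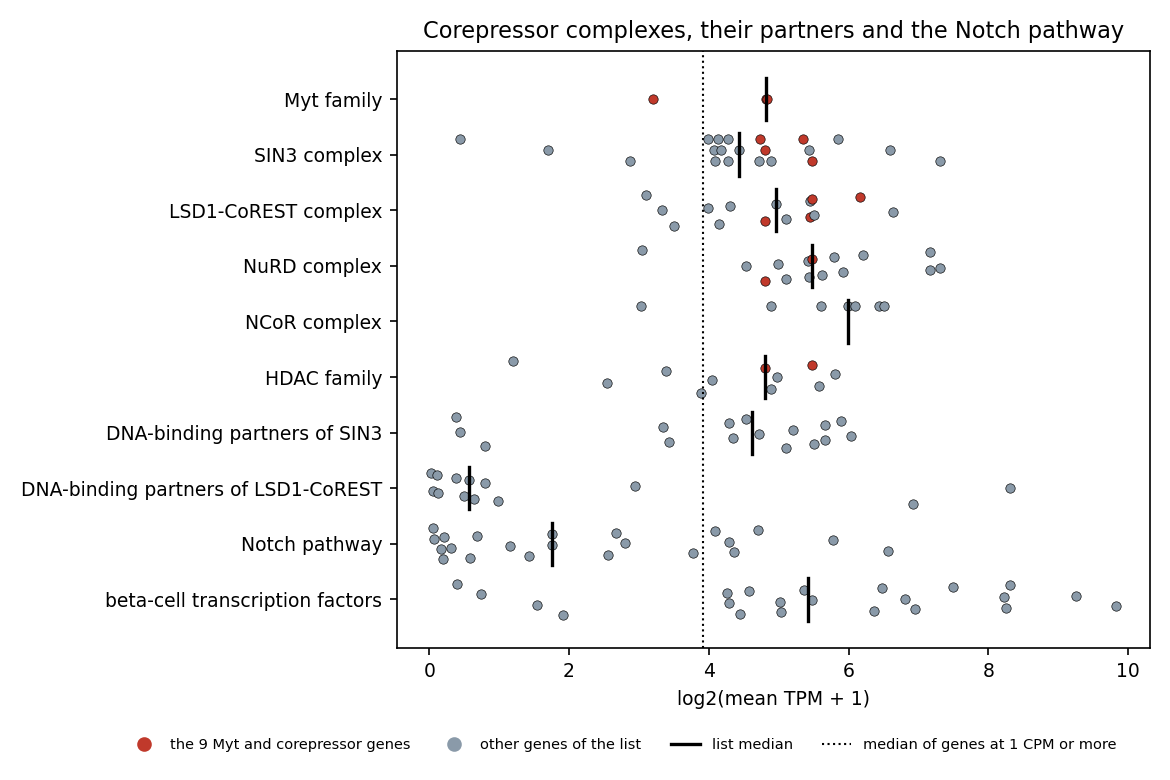
Log2(mean TPM + 1) of each gene of the lists, with the 9 Myt and corepressor genes in red, other genes in grey, a bar at each list's median and a dotted line at the median of genes whose mean reached 1 CPM (14.1 TPM). The medians of the 4 complexes lie right of the dotted line, at 20.5 to 62.5 TPM, and those of the LSD1-CoREST partners (0.477 TPM) and the Notch pathway (2.37 TPM) left of it.

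Notch pathway genes were examined because Myt1 and Myt1l are known to repress some of them in neural cells. Of 22 such genes 15 reached detection, and the list median was 2.37 TPM. Hes6 led at 106 and 82.2 TPM, followed by the Notch effector Hes1 at 45.9 and 61.6 TPM and Rfng at 25.1 and 24.8 TPM. The receptor Notch1 stood at 20.2 and 18.9 TPM, and the lowest detected gene was Notch4 at 0.518 and 0.693 TPM. Hes5, Hey1, Hey2, Heyl, Dll3, Lfng and Mfng did not reach 1 CPM in both libraries. Hey1 was called higher in library 2 from 6 and 18 reads (ratio 3.86, exact 95% interval 1.47 to 11.9, adjusted p = 0.012, exact binomial test), with 1.91% of tested genes called higher. Hes1 was higher in library 2 without reaching 2-fold (1.36, 1.27 to 1.45), and Hes6 lower (0.787, 0.746 to 0.831). Without control cells, these levels do not show whether any of them is repressed or released.

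Among 126 other genes of the program lists, those nearest to the members were found by the Euclidean distance of log2(TPM + 1) over the 2 libraries, which describes the level and little else. Myt1 and St18 had the same nearest genes, Hdac3 (31.1 and 26.4 TPM) and the SIN3 subunit Ing2 (30.8 and 26.8 TPM), at distances of 0.107 and 0.117 for Myt1 and 0.143 and 0.163 for St18. Myt1l lay nearest to Rcor3 (distance 0.144) and Rcor2 (0.204). Sin3a lay nearest to Mnx1, a homeobox factor of beta cells (0.0257), and Gatad2a, and Sin3b to Mga (0.0511) and Suds3. Hdac2 and Rcor1 shared Gse1 (0.0715 and 0.111) and Gatad2a, and Hdac1 lay nearest to Ing2 (0.139) and Mga. Klf10 was near Kdm1a, at a distance of 0.266.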

How the data were processed

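RNA of sorted islet beta cells was sequenced in 2 libraries of 1 genotype. The deposited tables give a raw read count, a CPM value and a TPM value for each gene, per the file headers. Per the submitters' processing notes, the tools were featureCounts 2.0.2, STAR 2.7.8a and cutadapt 2.10, on GRCm38.p6. The strand setting and the rule for reads with several matches are among the points not given in these sources. Per the labels, a TruSeq DNA kit was used, which does not mark strand. Deposited CPM equalled count over library total. Deposited TPM matched merged exon lengths of GENCODE M21 within 1% in 98.4% of the 16229 genes checked in library 1, and in all 9 members.

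Where a symbol had several identifiers (109 symbols, 0 members), the one with most reads was kept. Genes with 10 or more reads summed (20681) were tested by an exact two-sided binomial test against library totals (scipy 1.17.1) with Benjamini-Hochberg adjustment, and called at an adjusted p under 0.05 and a 2-fold CPM ratio with 0.5 read added. The script was tested on simulated counts with sampling noise only. That does not show how the test behaves with the larger differences between these libraries. Over the tested genes the counts differed by a chi-square of 28.6 per gene, and by 57.6 over those whose mean reached 10 CPM. The libraries thus differ by more than sampling noise. The common dispersion from edgeR over the tested genes gave a coefficient of variation of 18.1% between the libraries. edgeR's quasi-likelihood test needs a second group and was not run. edgeR 4.0.16 gave TMM factors and DESeq2 1.42.0 size factors for alternatives. A count of 0 allows up to 3 reads, 0.0599 and 0.0769 CPM. Intervals are exact Clopper-Pearson at 95%.

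The members and the 21 gene lists were chosen with earlier results of these data known. Of the lists 11 are program lists and 10 marker lists; 1 symbol, Fam60a, was not found. Named genes are all members and, of each complex, partner, HDAC and Notch list, the 3 highest by mean TPM, the lowest detected, those under 1 CPM and those called, plus the 2 list genes nearest to each member; exceptions are said to be so or are relatives of a member. Some genes that this rule selects are not reported here.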

Additional observations from a re-analysis of the deposited data

How the results depend on the processing

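The count of members called between the libraries stayed at 0 under TMM factors, DESeq2 size factors, both other low-count filters, 1 added read and a 1.5-fold threshold, and became 6 by adjusted p alone. Over all genes, 395 higher and 497 lower in library 2 became 184 and 172 with a mean of 1 CPM required, which tests fewer genes, 682 and 982 at 1.5-fold, and 2769 and 3930 by adjusted p alone. St18, Myt1, Myt1l, Kdm1a and Rcor1 passed by adjusted p in all 8 settings. The added read and the changed fold thresholds leave every adjusted p as it was, so not all 8 are separate checks. Sin3b passed in 6, but with neither TMM factors nor DESeq2 size factors. Hdac2 passed in 1, with TMM factors. With 1 library left out, the members' median was 26.04 to 31.0 TPM (27.4 in the mean of both), and 4 to 9 members kept their place in the order; by CPM 1 did. Of 10 gene pairs, 9 ratios moved by more than their SD when length scaling was dropped. Detection at 5 CPM left 108 of 116 program genes and 3 of the 6 detected LSD1-CoREST partners. No paired analysis was possible because all samples form 1 group. Depth limits Snai2, Hey1 and Brms1, each with at most 19 reads in a library.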

Other observations

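Of 22 beta-cell transcription factors, 20 were detected, with a median of 41.8 TPM. None was called between the libraries at 2-fold, where 4.31% of all tested genes were. Mafa, an activator of insulin transcription, stood at 815 and 989 TPM, Nkx6-1 at 586 and 628 TPM, and Insm1 at 340 and 295 TPM. Pax4 and Foxa1 were under 1 CPM in both libraries. By adjusted p alone (exact binomial test) 16 were lower and 3 higher in library 2, against 19% and 13.4% of all tested genes, or 28.8% and 21.9% of those whose mean reached 10 CPM, and the median log2 ratio of the list was −0.18, beside −0.36 for St18, −0.25 for Myt1 and −0.19 for Myt1l.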
